A study of Mus musculus with 9 samples.

Results

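Transcripts of 9 chemokines that are commonly counted among the secreted factors of senescent cells were followed across 9 engineered mouse muscle constructs. The genes were taken by symbol from the count tables and are Cxcl1, Cxcl2, Cxcl5, Cxcl10, Cxcl12, Ccl2, Ccl5, Ccl7 and Ccl8, 9 of the 40879 symbols listed. Of the 9, 8 had a count in any library and 7 passed the filter on low counts, which kept 11980 genes. The 2 that did not pass were Cxcl2, at 0 in every library, and Cxcl10, counted in 1 library only.

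C2C12 cells, a wild-type mouse myoblast line able to fuse into myotubes, formed the constructs, set in matrix prepared from muscle. All groups had 2 days in growth medium with 10% fetal bovine serum and 10 days in differentiation medium with 10% equine serum. Irradiated constructs (3 libraries) had 1 X-ray exposure of 20 Gy to bring on senescence, cocultured constructs (3) were themselves not irradiated and stood in a dish with an irradiated one, and normal constructs (3) had neither exposure. The model is a single cell line, the labels name no other cell type, and constructs could share a dish, so that the p-values reflect the spread among these samples, which may be partly technical. The design text counts 2 irradiated and 2 normal samples, the labels 3 of each, and all 9 libraries were used. In a bulk library, fewer cells of a type and less RNA per cell cannot be told apart.

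Chemokines are small secreted proteins that draw cells along a gradient by binding receptors that couple to G proteins. Cxcl1, Cxcl2 and Cxcl5 carry the ELR motif and attract neutrophils through Cxcr2, Cxcl10 is an interferon-induced ligand of Cxcr3, and Cxcl12 binds Cxcr4 and the scavenging receptor Ackr3. Ccl2 and Ccl7 attract monocytes through Ccr2, Ccl5 attracts T cells and monocytes, and Ccl8 is a further monocyte chemoattractant of the same gene cluster. In injured muscle such signals bring in neutrophils and macrophages, and Cxcl12 is known to guide the migration of muscle precursor cells. In senescent cells many of these genes are induced through IL-1 and NF-kB.

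Library totals were 6485655 to 8290468 counts in irradiated, 7506605 to 8035763 in cocultured and 4840993 to 6607557 in normal constructs. Levels are given as normalised CPM, the counts of a gene relative to its library's total after scaling with TMM factors, which level libraries over the bulk of their genes. A 3' library gives 1 tag per transcript, so levels of different genes can be compared on this scale without dividing by length. Muscle markers were present, with Myog, a regulator of myoblast differentiation, at 315, 274 and 253 CPM on average in irradiated, cocultured and normal constructs. Of 16 tested muscle markers, 6 were positive and 10 negative in irradiated against normal constructs (median log2 fold change -0.34, all tested genes -0.21), and edgeR called 0. Myf5, named after its values were seen, had 0 counts in irradiated constructs and averaged 15.6 CPM in cocultured and 10.8 CPM in normal constructs. DESeq2 called Myf5 lower in both comparisons of irradiated constructs, among 445 and 473 genes called. The libraries were uneven. Mitochondrial genes took 29.7% of the counts in normal 3 and 21.7% in irradiated 1, against 5.77% to 13.4% in the other 7. The gene Gm26917 took 23.9% in normal 1 and 27.4% in normal 2, against 3.38% to 12% in the other 7. The summed level of 17 muscle markers, 16 of them with a count, was 64880 CPM in irradiated 1 and 103800 in normal 3, against 5146 to 10710 in the other 7. Irradiated 2 lacked any count for 20.3% of the genes that averaged 20 to 50 CPM over the other 2 groups, irradiated 3 for 17% and the other 7 libraries for 0.0676% to 5.2%, which bears on every low value and every 0 given for irradiated 2 and irradiated 3. The cocultured and normal libraries defined this set, so their own shares were low in part by that choice. Genes lower in irradiated constructs would add to the irradiated shares.

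Cxcl5 was the most abundant of the 9 in every library. It averaged 3892 ± 455 CPM in irradiated, 3199 ± 919 in cocultured and 2796 ± 311 in normal constructs (SD, n = 3 each). Next in irradiated constructs came Cxcl12 (947 ± 261 CPM) and then Cxcl1 (416 ± 112), whereas Cxcl1 stood before Cxcl12 in cocultured (1038 ± 532 and 327 ± 70.8 CPM) and normal constructs (1207 ± 569.5 and 162 ± 138 CPM). The 4 CC chemokines lay far lower, with group means of 13.2 to 69.9 CPM, and their order changed from group to group within the spread of the libraries. Together the 9 genes summed to 5089, 5166 and 5895 CPM in the irradiated libraries, to 3036, 5350 and 5752 in the cocultured and to 5165, 3789 and 3824 in the normal libraries, so the irradiated range overlapped both others.

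**Figure D1:**
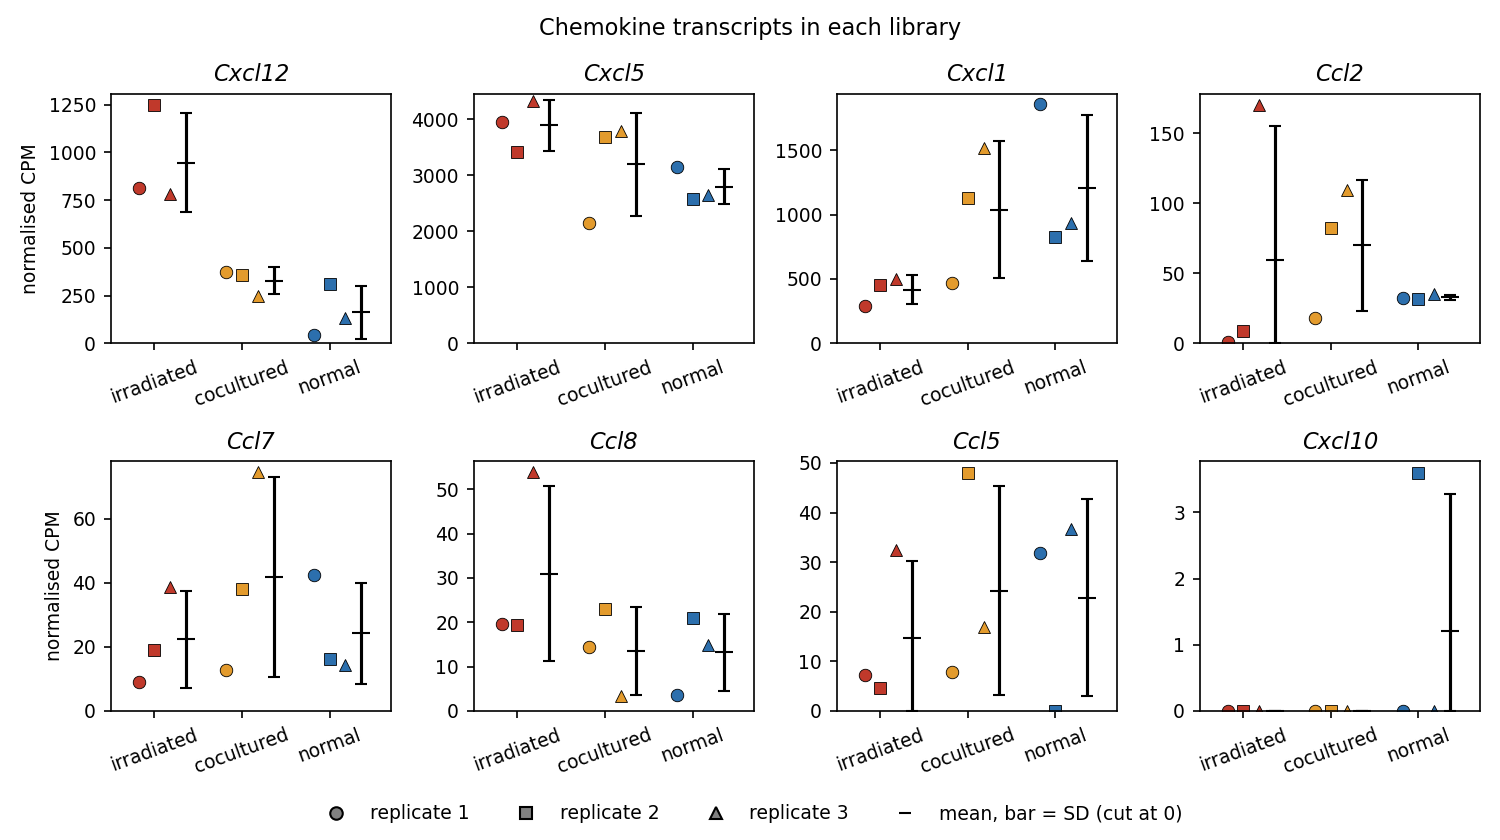
Normalised CPM (y axes, each from 0) of the 8 chemokines with a count, in the irradiated, cocultured and normal libraries (points, shaped by replicate number; the horizontal mark is the mean and the bar the SD of 3 libraries). The 3 irradiated libraries lie above all others for Cxcl12 and below all normal ones for Cxcl1, while Ccl2 spreads between 0.635 and 170 CPM in irradiated constructs and between 31.3 and 34.9 in normal ones.

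The first comparison set irradiated, senescence-induced constructs against normal ones. Cxcl12 had the highest values relative to normal of the 7 tested chemokines and Cxcl1 the lowest, and the irradiated libraries lay apart from the normal ones for both. Cxcl5 was slightly higher, also without overlap, and the 4 CC chemokines spread so widely that their groups overlapped. In edgeR's quasi-likelihood test, adjusted over all genes by Benjamini and Hochberg's method, 0 of the 7 passed an adjusted p of 0.05, where 0.0584% of all tested genes did (7 of 11980). At an unadjusted p under 0.05 there were 2, Cxcl12 and Cxcl1, against 10.3% of all tested genes, and DESeq2 called these 2 while limma voom called Cxcl12. DESeq2 called 445 of all tested genes, far more than edgeR, and the count of limma voom is given with the dependence on processing. Groups did not overlap for 3 of the 7, against 15.7% of all tested genes. The log2 fold change was positive for 4 of 7, against 41.8% of all tested genes, with a median of 0.47, where that of all tested genes was -0.21.

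Cxcl12, also known as stromal cell-derived factor, had 812, 1248 and 781 CPM in irradiated constructs, 376, 358 and 246 CPM in cocultured constructs and 40.9, 312 and 133 CPM in normal constructs. The lowest irradiated library stood above the highest of the other 6, and the normal libraries were the most uneven, 7.61-fold between normal 2 and normal 1. Irradiated against normal, the log2 fold change was 2.54 ± 0.57 (SE), or 5.83-fold, with an edgeR adjusted p of 0.146, and its p ranked 54 of 11980. Settings that changed this call included the tool, the filter and normal 2: the adjusted p was 7.07e-05 with DESeq2 (log2 2.64), 0.033 with limma voom (3.08), 1.59e-07 in edgeR without a filter on low counts (2.55) and 0.0306 in edgeR without normal 2 (3.45). It was 0.439 without normal 1 (log2 2.10) and 0.0617 without irradiated 1 (2.64), and no alternative turned its sign. Without both irradiated 1 and normal 3, the libraries rich in muscle markers, the log2 fold change was 2.54 (edgeR adjusted p = 0.265).

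Cxcl1, the mouse KC chemokine of neutrophils, went the other way. It had 290.4, 455 and 503 CPM in irradiated constructs, 467, 1125 and 1521 CPM in cocultured constructs and 1862, 824 and 936 CPM in normal constructs. All irradiated libraries were below all normal ones, and cocultured 1 lay among the irradiated values. The log2 fold change against normal was -1.54 ± 0.46, with an edgeR adjusted p of 0.36. DESeq2 called it lower (log2 -1.46, adjusted p = 0.0237), as did edgeR without a filter on low counts (-1.53, adjusted p = 0.00387), and over all alternatives the adjusted p ran up to 0.68. Scaled by library totals alone, irradiated 3 (627 CPM) lay above normal 3 (520.2 CPM), so the separation of the groups depended on the TMM factors. The factor of normal 3 was 0.556. Without Gm26917 and mitochondrial genes, the log2 fold change of Cxcl1 was -1.54 (edgeR adjusted p = 0.35).

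Cxcl5, known in mouse as LIX, had 3950, 3411 and 4316 CPM in irradiated constructs, 2140, 3675 and 3782 CPM in cocultured constructs and 3152, 2581 and 2655 CPM in normal constructs. Every irradiated library exceeded every normal one, by a small margin. The log2 fold change was 0.47 ± 0.35 (95% interval -0.21 to 1.15) with an edgeR adjusted p of 0.888. When scaled by library totals alone, irradiated 1 (2877 CPM) lay below normal 1 (3067 CPM).

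**Figure D2:**
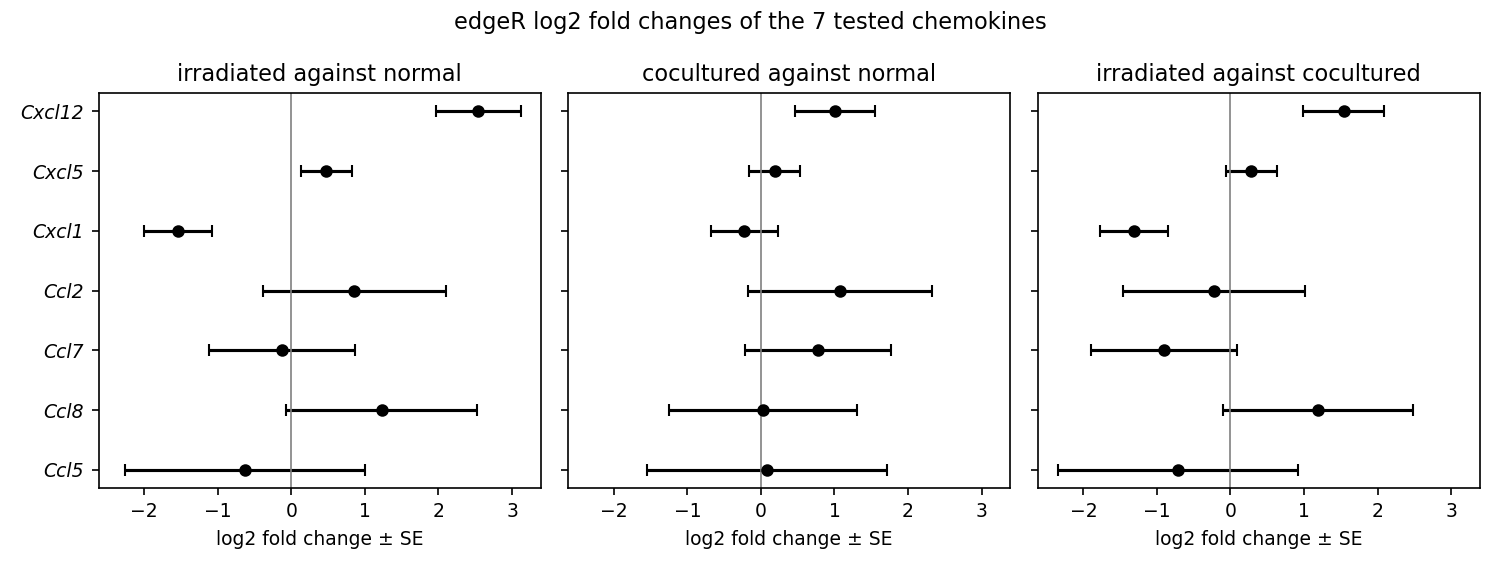
Log2 fold changes from edgeR (x axis, points, with bars for 1 SE) of the 7 tested chemokines (y axis) for irradiated against normal, cocultured against normal and irradiated against cocultured constructs. Cxcl12 (2.54, 1.01 and 1.54) and Cxcl1 (-1.54, -0.22 and -1.32) lie farthest from 0 relative to their errors in both comparisons of irradiated constructs, and the bars of the CC chemokines all cross 0.

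The start regions of Cxcl1, Cxcl2, Cxcl10 and Cxcl12 are shown because the counts of these genes ran from none in any library to 13503 in one. RefSeq windows on GRCm38.p6 of 250 bases before and 50 after the gene start were at hand for 5 of the 9 genes. The 250 bases before the start follow, 5′ to 3′ on the coding strand, with capitals for matches, on either strand, to an NF-kB motif (GGGA, any 2 bases, then TTCC), an interferon response motif (GAAA, any 2 bases, then GAAA) or an AP-1 motif (TGANTCA).
Cxcl1, chr5:90890995-90891244, plus strand: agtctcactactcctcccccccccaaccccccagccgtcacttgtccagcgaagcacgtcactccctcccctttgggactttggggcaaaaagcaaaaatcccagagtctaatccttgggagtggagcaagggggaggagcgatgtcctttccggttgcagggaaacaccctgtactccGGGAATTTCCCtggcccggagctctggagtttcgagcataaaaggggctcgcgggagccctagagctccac
Cxcl2, chr5:90903649-90903898, plus strand: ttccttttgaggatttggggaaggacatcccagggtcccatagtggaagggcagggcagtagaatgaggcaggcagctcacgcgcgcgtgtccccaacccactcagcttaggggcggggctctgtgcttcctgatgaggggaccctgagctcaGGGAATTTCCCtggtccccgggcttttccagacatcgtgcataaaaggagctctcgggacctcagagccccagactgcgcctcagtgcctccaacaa
Cxcl10, chr5:92348890-92349139, minus strand: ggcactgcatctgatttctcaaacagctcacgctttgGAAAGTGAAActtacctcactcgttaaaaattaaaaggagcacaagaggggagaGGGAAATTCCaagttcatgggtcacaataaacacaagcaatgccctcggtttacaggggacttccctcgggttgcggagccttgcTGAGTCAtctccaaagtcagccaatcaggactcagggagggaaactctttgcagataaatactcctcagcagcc
Cxcl12, chr6:117168285-117168534, plus strand: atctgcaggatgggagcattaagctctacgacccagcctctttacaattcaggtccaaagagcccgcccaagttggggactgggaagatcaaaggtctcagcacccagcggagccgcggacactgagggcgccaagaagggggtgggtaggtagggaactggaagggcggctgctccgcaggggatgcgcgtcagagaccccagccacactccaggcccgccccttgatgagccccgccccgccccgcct

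Cxcl1 and Cxcl2 are neighbouring chemokine genes on chromosome 5 and hold the same run GGGAATTTCCC, 71 to 61 bases before the start of Cxcl1 and 97 to 87 bases before that of Cxcl2. It matches the NF-kB motif on both strands, and the longest stretch that the upstream windows of these genes share is 14 bases. Cxcl10 holds an interferon response match 213 to 204 bases, an NF-kB match 159 to 150 bases and an AP-1 match 74 to 68 bases before its start. Among 32851 RefSeq promoter windows of the same length, 1.47% hold the NF-kB motif, 3.44% the interferon response motif and 7.81% the AP-1 motif. In the Cxcl12 window none of these letters was found, which says only that they are not in this window. In the window of Ccl8, not printed, the TATA box letters TATAAA, found in 13.6% of windows, stood 32 to 27 bases before the start.

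The genes with an NF-kB match had very different counts. Cxcl1 had 1372 to 13503 counts in each library. Cxcl2 had 0 in all 9, which allows at most 0.281 to 0.817 CPM per library (3 counts), for counting error only, as for all limits and intervals given here. In a reference set of transcripts (GENCODE M21), some of the 2209 possible 75-base reads of Cxcl2 also occur in Cxcl3, its near copy, which was at 0 in all libraries as well, and 0 of the 2020 of Cxcl1 occur in another gene. Cxcl10 had 16 counts, all in normal 2 (3.60 CPM), and 0 in the other 8 libraries. It overlaps Art3 on the opposite strand, and whether counting used the strand is not given in the sources used here.

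The CC chemokines, all on chromosome 11, spread widely within groups, most of all within irradiated constructs for Ccl2. Ccl2, the main monocyte attractant, had 0.635, 8.52 and 170 CPM in irradiated constructs (3, 91 and 1452 counts), 18.1, 82.3 and 109 CPM in cocultured constructs and 32.6, 31.3 and 34.9 CPM in normal constructs. Irradiated 3 held the highest value of all 9 libraries and irradiated 1 the lowest. The ratio of irradiated 3 to irradiated 1 was 267, with a counting interval of 91.3 to 1300, while the normal libraries differed by 1.11-fold. Among 4535 genes of 20 to 100 CPM the median range within a group was 2.13 log2 units in irradiated and 1.17 in normal constructs. The range of Ccl2 was 7.54 log2 units in irradiated constructs, where 8.69% of these genes ranged wider, and 0.15 in normal constructs, where 98.5% did. Irradiated against normal the log2 fold change was 0.85 ± 1.25 with an edgeR adjusted p of 1, and without irradiated 3 it was -2.82. Ccl2 overlaps the predicted gene Gm17268 on the opposite strand. In the reference set of transcripts, 0 of the 1138 possible 75-base reads of Ccl2 occur in another gene, though the annotation behind the counts is not given.

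Ccl7, a close relative of Ccl2, had 9.10, 19.1 and 38.8 CPM in irradiated constructs, 12.7, 38.0 and 74.7 CPM in cocultured constructs and 42.4, 16.2 and 14.2 CPM in normal constructs. Ccl8 had 19.7, 19.4 and 53.9 CPM in irradiated constructs, 14.4, 23.0 and 3.27 CPM in cocultured constructs and 3.67, 20.9 and 15.0 CPM in normal constructs. The groups overlapped for both. Ccl5 had 7.20, 4.59 and 32.5 CPM in irradiated constructs, 7.79, 48.0 and 16.9 CPM in cocultured constructs and 31.8, 0 and 36.8 CPM in normal constructs, the 0 allowing up to 0.675 CPM. Irradiated 3 was the highest irradiated library for all 4 CC chemokines, and for Cxcl1 and Cxcl5, but not for Cxcl12. The log2 fold changes against normal were -0.12 ± 0.99 for Ccl7, 1.23 ± 1.30 for Ccl8 and -0.63 ± 1.63 for Ccl5, each with an edgeR adjusted p of 1. Without irradiated 1 or normal 1 that of Ccl7 was 0.25 or 0.59, and that of Ccl5 was -1.95 without irradiated 3. Ccl8 kept its positive sign in every alternative run, at 0.56 without irradiated 3.

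**Figure D3:**
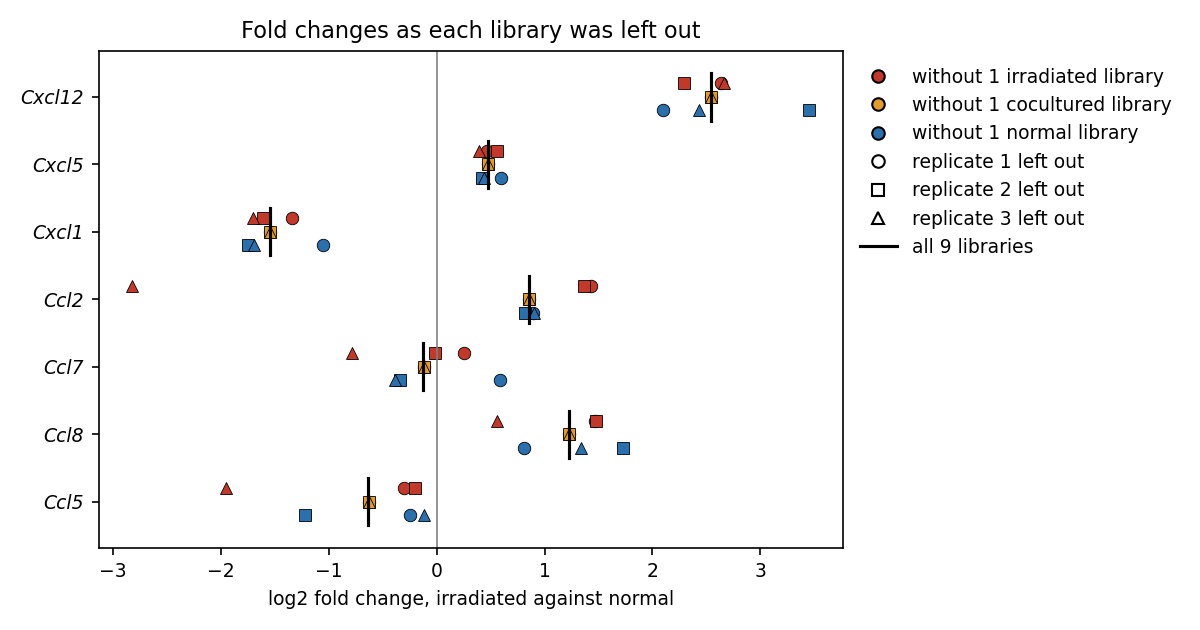
Log2 fold changes of the 7 tested chemokines (y axis) in irradiated against normal constructs (x axis) when each of the 9 libraries was left out of the edgeR fit (points, coloured by group and shaped by replicate number; vertical marks show the fit of all 9). Cxcl12 ran from 2.10 to 3.45 and Cxcl1 from -1.75 to -1.05, whereas Ccl2 ran from -2.82 to 1.43 and Ccl7 from -0.78 to 0.59.

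The second comparison asked whether normal constructs kept in a dish with an irradiated one differ from normal constructs kept without one. None of the 7 tested chemokines stood apart from normal. By edgeR 0 of 7 passed, as 0% of all 11980 tested genes did, and 0 of 7 had an unadjusted p under 0.05, where 4.11% of all tested genes had one. DESeq2 and limma voom also called 0 of 7, where DESeq2 called 84 of all tested genes. The groups overlapped for all 7, where 13.2% of all tested genes did not overlap. The log2 fold change was positive for 6 of 7 chemokines and for 46.9% of all tested genes, and the median of the 7 was 0.19, where all tested genes had -0.07. The comparisons with normal share the normal libraries, so their values are not independent of each other.

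Cxcl12 came closest, at 327 ± 70.8 CPM in cocultured and 162 ± 138 CPM in normal constructs (log2 1.01 ± 0.55, edgeR adjusted p = 1). Cocultured 1 (376 CPM) and cocultured 2 (358 CPM) lay above all normal libraries and cocultured 3 (246 CPM) lay below normal 2 (312 CPM). The log2 value was 1.91 without normal 2 and 0.56 without normal 1. Cxcl5 differed by a log2 of 0.19 ± 0.35 (95% interval -0.49 to 0.87) and Cxcl1 by -0.22 ± 0.45 (-1.11 to 0.67). For Cxcl1 the sign turned to 0.13 without cocultured 1, to 0.26 without normal 1 and to 0.26 with library totals. The log2 fold changes of Ccl2 (1.08 ± 1.25) and Ccl7 (0.78 ± 0.99) carried errors as large as the values, and cocultured 1 was the lowest cocultured library for both, as it was for Cxcl1, Cxcl5 and Ccl5. Ccl5 (0.08 ± 1.63) and Ccl8 (0.03 ± 1.28) lay near 0 with intervals reaching -3.11 to 3.27 and -2.47 to 2.54. The sign of Ccl5 turned to -0.89 without cocultured 2 and to -0.50 without normal 2, and that of Ccl8 to -0.58 without cocultured 2 and to -0.39 without normal 1.

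The third comparison set irradiated constructs directly against cocultured ones. Cxcl12 was higher and Cxcl1 lower in irradiated constructs, and only for Cxcl12 did the groups not overlap. By edgeR 0 of 7 chemokines passed, where 0.0334% of all tested genes did (4 of 11980), and Cxcl12 and Cxcl1 had an unadjusted p under 0.05, where 9.58% of all tested genes had one. Without overlap stood 1 of 7, against 14.5% of all tested genes, and 3 of 7 had a positive log2 fold change, against 46.7%. DESeq2 called 473 of all tested genes in this comparison. The log2 fold change of Cxcl12 was 1.54 ± 0.55, or 2.90-fold (edgeR adjusted p = 0.493), and it was called by DESeq2 (1.64, adjusted p = 0.0452), by limma voom (1.59, adjusted p = 0.0302) and by edgeR without a filter on low counts (1.54, adjusted p = 0.0121), while over all alternatives the adjusted p ran up to 0.718. That of Cxcl1 was -1.32 ± 0.46 (edgeR adjusted p = 0.493), called in edgeR without that filter (-1.32, adjusted p = 0.0255) and with an adjusted p of up to 0.734 over all alternatives. Cocultured 1 (467 CPM) lay between irradiated 2 (455 CPM) and irradiated 3 (503 CPM). Cxcl5 differed by 0.28 ± 0.35, Ccl8 by 1.19 ± 1.29, Ccl7 by -0.90 ± 0.996, Ccl5 by -0.71 ± 1.63 and Ccl2 by -0.23 ± 1.23. The sign of Ccl2 turned to 0.35 without irradiated 1, to 0.29 without irradiated 2 and to 0.25 without cocultured 3, and that of Ccl5 to 0.26 without cocultured 2. The comparison shares its libraries with both comparisons against normal. Which irradiated and cocultured constructs shared a dish is not given, so the test took them as unpaired.

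Within each library the 9 chemokines can be set against one another, which needs no scaling between libraries. Cxcl5 gave 77.6%, 66.0% and 73.2% of their counts in irradiated constructs, 70.5%, 68.7% and 65.8% in cocultured constructs and 61.0%, 68.1% and 69.4% in normal constructs. Cxcl1 gave 5.71%, 8.81% and 8.53% in irradiated constructs, 15.4%, 21.0% and 26.4% in cocultured constructs and 36%, 21.8% and 24.5% in normal constructs, so the irradiated shares lay below all others. Cxcl12 gave 16%, 24.2% and 13.2% in irradiated constructs, 12.4%, 6.69% and 4.27% in cocultured constructs and 0.793%, 8.22% and 3.47% in normal constructs, and here the irradiated shares lay above all others. For the library with the fewest Cxcl1 counts, irradiated 1, the exact 95% interval of the Cxcl1 share was 5.42% to 6.01%, taking reads as independent although PCR copies are not.

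**Figure D4:**
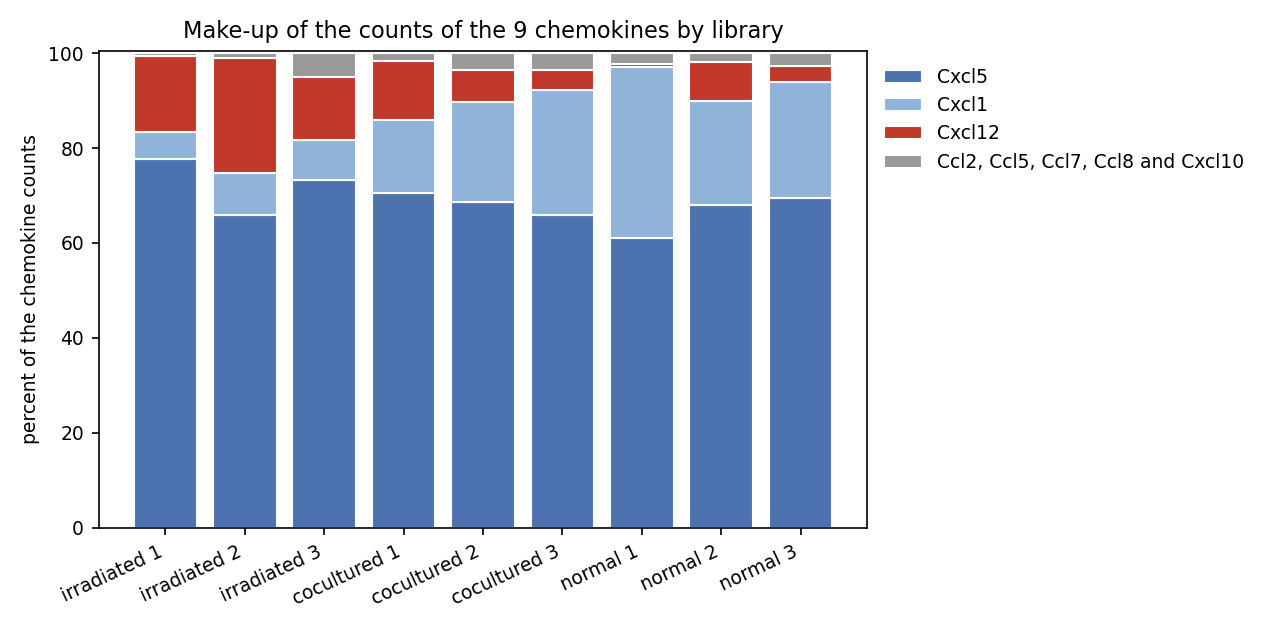
Percent of the counts of the 9 chemokines (y axis) given by Cxcl5, Cxcl1, Cxcl12 and the 4 CC genes with Cxcl10, in each library (stacked bars, irradiated, cocultured and normal from left to right; Cxcl2 was at 0). Cxcl5 makes up 61.0% to 77.6% of every bar, and the Cxcl1 segment is 5.71% to 8.81% in irradiated libraries and 15.4% to 36% in the other 6.

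Cxcl5 and Cxcl1, both ligands of Cxcr2, thus differed in proportion. The ratio of Cxcl5 to Cxcl1 counts, chosen after the values were seen and given as a description, was 13.6, 7.49 and 8.58 in irradiated constructs, 4.58, 3.27 and 2.49 in cocultured constructs and 1.69, 3.13 and 2.84 in normal constructs. The ratio of Cxcl12 to Cxcl1, chosen in the same way, was 2.80, 2.74 and 1.55 in irradiated constructs, 0.806, 0.318 and 0.161 in cocultured constructs and 0.0220, 0.378 and 0.142 in normal constructs. Both ratios were higher in each irradiated library than in any other, which for Cxcl12 to Cxcl1 follows from the levels given above.

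Profiles over the 9 libraries were compared as the root mean square difference in log2 CPM after each gene was centred on its own mean, so that 0 is the same profile. Among the members, Cxcl1 and Ccl7 were the closest pair (0.671) and Cxcl12 and Ccl5 the farthest (2.91), while Cxcl12 lay nearest to Ccl8 (1.04). Of all other tested genes, the 3 nearest to Cxcl1 were Prdx5 (0.205), Slpi (0.211) and Trps1 (0.246), where Cxcl1's own spread was 0.845. The median difference of all genes from Cxcl1 was 2.00. Slpi, an inhibitor of leukocyte proteases, had 132, 187 and 166 CPM in irradiated constructs, 189, 395 and 478 CPM in cocultured constructs and 584, 357 and 430 CPM in normal constructs. Nearest to Cxcl12 were Slc1a3 (0.314), Nnt (0.424) and Snai2 (0.487), with an own spread of 1.41. Slc1a3, a glutamate transporter, had 262, 402 and 211 CPM in irradiated constructs, 129, 143 and 56.4 CPM in cocultured constructs and 16.1, 89.7 and 26.7 CPM in normal constructs. The 3 genes nearest to each of the other tested chemokines were Bpnt2, Colgalt1 and Cyb5r3 for Cxcl5 (0.110 to 0.182), Smim14, Cabin1 and Tmem176b for Ccl7 (0.447 to 0.548), Plcb1, Oat and Cox20 for Ccl8 (0.513 to 0.585), Cgnl1, Rbm45 and Snx13 for Ccl2 (0.787 to 0.840) and Pgap2, Pitpnm1 and Ctxn3 for Ccl5 (0.870 to 1.29).

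Receptors of these chemokines were scarce in the constructs. Of 24 chemokine receptor genes 10 had a count and 5 were tested, and edgeR and limma voom called 0 of the 5 in each comparison. Cxcr2, Cxcr3, Ccr2 and the CC scavenger Ackr2 had 0 counts in all 9 libraries, and Ccr1 (13 counts) and Ackr1 (29 counts) were counted in 1 normal library each. Cxcr4, the signalling receptor of Cxcl12, had 0, 0 and 1 counts in irradiated constructs, 25, 153 and 12 counts in cocultured constructs and 133, 43 and 0 counts in normal constructs. Irradiated counts of Cxcr4 were lower than every cocultured count and overlapped the normal ones (edgeR adjusted p = 0.483 against normal, where DESeq2 called it lower, and edgeR adjusted p = 0.493 against cocultured). The other Cxcl12 receptor, Ackr3, had 12.9, 74.9 and 0 CPM in irradiated constructs, 57.3, 67.5 and 67.7 CPM in cocultured constructs and 91.3, 65.7 and 33.5 CPM in normal constructs, with overlap between irradiated and normal (log2 -1.12 ± 1.27, edgeR adjusted p = 1). Beside the low irradiated counts stand the 20.3% and 17% of genes, of 20 to 50 CPM in the other 2 groups, without a count in irradiated 2 and irradiated 3, whose part in these values was not tested.

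Of 31 genes that act upstream of these chemokines, the inflammatory cytokines and the IL-1 and NF-kB factors, 29 were tested. In irradiated against normal constructs 12 were positive and 17 negative in log2 fold change (median -0.54), and edgeR called 0, with 7 lower and 0 higher at an unadjusted p under 0.05. Of all 11980 tested genes 41.8% were positive, with a median of -0.21, and 1042 were lower and 190 higher at that p. DESeq2 called 4 lower, where it called 445 of all tested genes, and limma voom called 0. Il1a, an alarm cytokine that drives the secretory programme, had 2.54, 0 and 0 CPM in irradiated constructs, 48.7, 167 and 176 CPM in cocultured constructs and 163, 55.8 and 82.5 CPM in normal constructs. Its irradiated libraries lay below all others (log2 -7.11 ± 1.38, edgeR adjusted p = 0.101 against normal, and adjusted p = 0.144 against cocultured). Il1b had 0 counts over the irradiated, 263 over the cocultured and 95 over the normal libraries. Allowing 3 counts over the irradiated group puts Il1b at least 58.2-fold lower than in normal constructs, for counting error alone. With the spread between libraries, the 95% interval of its edgeR log2 fold change was -14.6 to -2.86 (adjusted p = 0.483), which reaches smaller differences. Il1b averaged only 7.46 CPM in normal constructs, below the 20 to 50 CPM at which irradiated 2 and irradiated 3 lacked many genes. Il6 had 0, 1.59 and 70.4 CPM in irradiated constructs, 159, 346 and 274 CPM in cocultured constructs and 464, 147 and 363 CPM in normal constructs, and irradiated 3, the library with the most Ccl2, held nearly all of its irradiated counts. Tnf was at 0 in all 9 libraries.

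The NF-kB subunit gene Rela averaged 81.5 CPM in irradiated and 78.5 CPM in normal constructs (log2 0.05 ± 0.53). Nfkb1 averaged 15.1 CPM in irradiated, 24.1 in cocultured and 58.5 in normal constructs, the normal libraries lying above both other groups (log2 -1.96 ± 1.36, edgeR adjusted p = 0.836 for irradiated and -1.29 ± 1.33, adjusted p = 1 for cocultured against normal). Nfkb2 and Relb, subunits of the noncanonical NF-kB pathway, were named after their values were seen. Nfkb2 averaged 123 ± 24.1 CPM in irradiated, 61.5 ± 10.3 in cocultured and 76.8 ± 9.18 in normal constructs, and the irradiated libraries lay above all others (irradiated against normal log2 0.68 ± 0.40, edgeR adjusted p = 0.666, and against cocultured 1.001 ± 0.40, adjusted p = 0.493). Relb averaged 47.7 ± 19.3 CPM in irradiated, 23.1 ± 6.48 in cocultured and 30.6 ± 3.71 in normal constructs, without overlap against cocultured (log2 1.05 ± 0.77, edgeR adjusted p = 0.785) and with overlap against normal (0.64 ± 0.76). Nfkbia, the inhibitor that NF-kB itself induces, averaged 399 ± 125 CPM in irradiated, 430.1 ± 107 in cocultured and 577 ± 134 in normal constructs (irradiated against normal log2 -0.54 ± 0.35, edgeR adjusted p = 0.777). In the cocultured constructs 15 of the 29 genes had positive and 14 negative log2 fold changes against normal, with a median of 0.04 and 0 at an unadjusted p under 0.05, where 4.11% of all tested genes had one. In irradiated against cocultured constructs 10 were positive and 19 negative, with a median of -0.68, and edgeR called 0, with 1 higher and 8 lower at an unadjusted p under 0.05, where all tested genes had a median of -0.10, 270 higher and 878 lower. DESeq2 called 4 lower, where it called 473 of all tested genes, and limma voom called 0.

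Of 24 genes of the interferon pathway, which induces Cxcl10, 18 were tested and 13 had positive log2 fold changes in irradiated against normal constructs, with a median of 0.46, beside 41.8% positive and a median of -0.21 over all tested genes. By edgeR 0 were called, with 1 lower at an unadjusted p under 0.05 (10.3% of all tested genes had such a p), and DESeq2 and limma voom called 0. That gene was Isg15, a ubiquitin-like interferon target named after its values were seen, which had 0 counts in each irradiated library, 0 to 5.56 CPM in cocultured and 5.40 to 17.5 CPM in normal constructs (edgeR adjusted p = 0.483). Irf1, an interferon-induced transcription factor, averaged 56.4 CPM in irradiated, 51.6 in cocultured and 31.4 in normal constructs (irradiated against normal log2 0.84 ± 0.79). Irf7 was at 0 in all libraries. In cocultured against normal constructs 14 of the 18 were positive (median 0.48), beside 46.9% and -0.07 over all tested genes, with 0 at an unadjusted p under 0.05 (4.11% over all tested genes), and in irradiated against cocultured 9 were positive and 9 negative. A further list held 17 genes whose products cut or bind chemokines or make heparan sulfate chains. Of these 14 were tested, and edgeR called 0 in each comparison. At an unadjusted p under 0.05 there were 1 higher and 3 lower in irradiated against normal constructs, 0 in cocultured against normal and 3 lower in irradiated against cocultured. Over all tested genes 10.3%, 4.11% and 9.58% had such a p in these comparisons, in the same order. DESeq2 called 1 higher and 1 lower in irradiated against normal and limma voom 1 lower, and both called 1 higher and 2 lower in irradiated against cocultured and 0 in cocultured against normal. Of all tested genes DESeq2 called 445 in irradiated against normal and 473 in irradiated against cocultured. Sdc4, a heparan sulfate proteoglycan singled out after its values were seen because limma voom and DESeq2 called it in both comparisons of irradiated constructs, averaged 175 ± 89.0 CPM in irradiated, 450.3 ± 61.8 in cocultured and 500.3 ± 111 in normal constructs (irradiated against normal log2 -1.52 ± 0.38, edgeR adjusted p = 0.196).

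Leukocytes are the usual source of several CC chemokines, and markers of these cells were mixed in level. Ptprc, the pan-leukocyte antigen, had 1 count in all 9 libraries, Lyz2 had 2 counts, both in cocultured libraries, and Adgre1 had 14 counts, all in normal 2. Of 15 macrophage and other leukocyte markers 13 had a count in any library, and 2 to 7 had one in each. Their summed level was 19.6 to 57.2 CPM in irradiated, 38.4 to 186 CPM in cocultured and 116 to 469 CPM in normal constructs. Most of the sum in cocultured 2 and 3 and in the normal libraries was Cd14, a receptor for bacterial lipopolysaccharide named after its values were seen. Cd14 had 4.87, 18.6 and 1.05 CPM in irradiated constructs, 16.8, 135 and 169 CPM in cocultured constructs and 444, 93.5 and 135 CPM in normal constructs. Its irradiated libraries lay below all normal ones, as for Cxcl1 (log2 -4.76 ± 1.08, edgeR adjusted p = 0.148, called lower by DESeq2), and its part in the Cxcl1 values was not tested. The other 14 markers, 12 with a count, summed to 8.89 to 52.3 CPM in irradiated, 1.85 to 21.7 in cocultured and 22.5 to 59.9 in normal constructs, where irradiated overlapped both other groups. The 10 fibroblast markers, 9 with a count, summed to 7522 to 12170 CPM in irradiated, 11430 to 15730 in cocultured and 10260 to 17350 in normal constructs, with overlap between all groups. Dcn and Col3a1 made up most of these sums. Of the 7 tested, 1 was positive and 6 negative in irradiated against normal constructs, beside 41.8% positive over all tested genes. The positive one, Dpt, had 9.93 to 36.8 CPM in irradiated, 0 to 7.68 in cocultured and 0 in normal constructs. DESeq2 called it higher against normal, among 445 genes called. The summed level of 7 smooth muscle and pericyte markers was 394 to 660.3 CPM in irradiated, 342 to 641 in cocultured and 357 to 595 in normal constructs, that of 8 endothelial markers was 5.73 to 40.4, 0 to 8 and 2.02 to 31.3 CPM, and that of 7 adipocyte markers 34.5 to 426, 124 to 601 and 155 to 1018 CPM in the same order.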

How the data were processed

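By the labels, each of 9 constructs gave 1 library of the 3' ends of transcripts. Per the labels' protocols, 100 ng of total RNA entered the QuantSeq 3' mRNA FWD kit, and a NextSeq 550 gave single-end reads of 75 bp. The submitters' processing notes name the builds GRCm39 and mm39 and the tools FastQC, HTSeq and STAR, with neither versions nor roles. Annotation, strand setting and duplicate handling: not given in the sources used here, and no molecular identifiers are stated. Per the file headers and the values, the authors deposited raw counts as whole numbers for each gene symbol. The number in each file's column header was 1 above the label's number in all 9 files, and libraries were assigned by the series' own record of each sample's file.

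The filter filterByExpr, TMM factors and 1 quasi-likelihood model with group as its term over all 9 libraries were run in edgeR 4.0.16 (limma 3.58.1, R 4.3.3), with Benjamini-Hochberg adjustment over 11980 genes and a threshold of 0.05. Common dispersion had a square root of 1.32. Normalised CPM divide counts by the library total times the TMM factor. Standard errors are the log2 fold change over the square root of F, and 95% intervals are approximate. The script was tested on simulated data. Libraries of a group differed by far more than counting noise (35.4 to 297 in chi-square per gene). Preparing a library adds noise of its own, so this cannot tell separate constructs from repeat libraries of 1 construct. None was treated as a duplicate, following the labels. Alternatives were limma voom, DESeq2 1.42.0, further scalings and filters, a replicate block and leaving out libraries.

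The 9 chemokines and all lists were chosen with earlier results of these data known. Named were all 9, fixed receptors and inducers whatever their result (2 of them are not reported here), called genes of the lists, of which there were none in edgeR, and the 3 genes nearest in profile to each tested chemokine of at least 10 CPM. Promoter sequences are RefSeq's on GRCm38.p6, and motif positions refer to that build, not to the build of the counts.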

Additional observations from a re-analysis of the deposited data

How the results depend on the processing

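Of 420 log2 fold changes of the 7 tested chemokines under alternatives, 385 kept direction and side of the threshold, 11 passed the threshold that they had missed, 0 did the reverse and 24 changed sign. The count of genes called in irradiated against normal constructs was 7 and became 445 with DESeq2, 25 with limma voom, 130 without a low-count filter, 0 with the 6 libraries alone, 23 with a replicate block, 20 without both normal 3 and irradiated 1, 21 at an adjusted p under 0.1 and 6 to 147 with 1 library left out (147 without irradiated 1, 17 without irradiated 3, 14 without normal 2 and 13 without irradiated 2). In irradiated against cocultured constructs it was 4 and became 473 with DESeq2, 105 with limma voom, 9 with library totals, 153 without a filter, 0 with 6 libraries, 12 with the replicate block, 21 without both normal 3 and irradiated 1, 8 at an adjusted p under 0.1 and 1 to 97 with 1 library left out (97 without irradiated 1, 13 without irradiated 3, 11 without irradiated 2, 8 without cocultured 1, 7 without normal 2, 2 without cocultured 3 and 1 without normal 1 or normal 3). In cocultured against normal constructs it was 0 and became 84 with DESeq2, 52 without a filter and 1 without both normal 3 and irradiated 1. Chemokines called in irradiated against normal constructs numbered 0 and became 2 with DESeq2, 1 with limma voom, 2 without a filter, 1 (Cxcl12) with the replicate block and 0 to 1 with 1 library left out. In irradiated against cocultured constructs they numbered 0 and became 1 with DESeq2, 1 with limma voom and 2 without a filter. The cause was not tested, other than that leaving out libraries or genes changes the number tested.

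With a replicate block the log2 fold change of Cxcl12 in irradiated against normal constructs was 2.76 (edgeR adjusted p = 0.0283). The numbers did not mark pairs in these values: correlations of same-numbered libraries ran from -0.071 to 0.0537, other pairs from -0.081 to 0.0944, and 3 of 9 libraries correlated best with their own number. Which constructs shared a dish is not given, so a pairing by dish could not be checked.

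Signs turned in irradiated against normal constructs for Ccl2 (0.85) with limma voom (-1.17), the replicate block (-1.27) and over omissions (-2.82 to 1.43), for Ccl5 (-0.63) with limma voom (0.98), library totals (0.00423) and without both normal 3 and irradiated 1 (0.22; single omissions -1.95 to -0.11), and for Ccl7 (-0.12) with library totals (0.31) and over omissions (-0.78 to 0.59). In cocultured against normal constructs they turned for Ccl8 (0.03) with DESeq2 (-0.00821) and DESeq2's size factors in edgeR (-0.00888) and over omissions (-0.58 to 0.54), for Cxcl1 (-0.22) with library totals (0.26) and over omissions (-0.60 to 0.26), and for Ccl5 (0.08) over omissions (-0.89 to 0.58). In irradiated against cocultured constructs they turned for Ccl2 (-0.23) without both normal 3 and irradiated 1 (0.37) and over omissions (-3.90 to 0.35) and for Ccl5 (-0.71) over omissions (-2.04 to 0.26). Library totals moved the median of all genes by 0.35, 0.55 and -0.18 log2 units in the 3 comparisons. The wide spread between libraries, and the genes without counts in irradiated 2 and irradiated 3, limit what can be read from the CC chemokines.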

Other observations

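Of 29 further chemokine ligand genes, 15 had a count and 7 were tested, of which edgeR called 0 in each comparison. At an unadjusted p under 0.05 there was 1 lower in irradiated against normal constructs, 0 in cocultured against normal and 1 higher and 1 lower in irradiated against cocultured, and limma voom called 0 in each comparison. Of all tested genes 10.3%, 4.11% and 9.58% had such an unadjusted p in these comparisons, in the same order. DESeq2 called Ccl3 lower in both comparisons of irradiated constructs, where it called 445 (against normal) and 473 (against cocultured) of all tested genes. The genes below were chosen after their values were seen.

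Ccl3, a CC chemokine of macrophages and T cells, had 0 counts in each irradiated library, 0, 29.0 and 60.1 CPM in cocultured constructs and 111, 26.1 and 52.3 CPM in normal constructs. Allowing 3 counts over the irradiated group puts Ccl3 at least 524-fold lower than in normal constructs (0 and 854 counts), for counting error alone. With the spread between libraries, the edgeR interval of its log2 fold change was -16.9 to -6.73 (adjusted p = 0.153), which reaches smaller differences. Cocultured 1, itself not irradiated, had 0 counts as well. Ccl11, the eosinophil attractant eotaxin, ran the other way, with 1.91, 52.4 and 34.7 CPM in irradiated constructs, 3.63, 0 and 0 CPM in cocultured constructs and 0, 1.12 and 0.545 CPM in normal constructs. Its pooled counts (866 in irradiated, 7 in normal) stood at a ratio of 67.3 (counting interval 32.5 to 168, for counting error alone). With the spread between libraries, its edgeR log2 fold change was 5.69 (interval 0.113 to 11.3), which reaches much smaller differences. It was not called by edgeR (adjusted p = 0.511). Most of the irradiated Ccl11 counts came from irradiated 2 (560) and irradiated 3 (297). In these libraries many genes of 20 to 50 CPM in the other groups had no count. Cx3cl1, the membrane-tethered chemokine fractalkine, had 136, 62.5 and 226 CPM in irradiated constructs, 27.3, 68.9 and 131 CPM in cocultured constructs and 197, 84.8 and 114 CPM in normal constructs, with overlap between all groups.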
